A study of Homo sapiens with 7 samples.

Results

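The 34 genes described here are imprinted human genes outside the H19 and IGF2 locus, taken from a named list and placed by their GRCh37 gene models in 16 imprinted domains. A CTCF peak was assigned to a gene when it overlapped the gene model or lay within 20 kb of it. By this rule 66 of the 33094 peaks of untreated K562 cells (control list) and 77 of the 32917 peaks of cells treated with pyridostatin (PDS list) lay at the 34 genes. K562 is an established human leukemia cell line, and PDS is a small molecule that binds and stabilizes G-quadruplexes (G4s), the 4-stranded folds of guanine-rich DNA.

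CTCF occupancy was measured by chromatin immunoprecipitation and sequencing (ChIP-seq) with an anti-CTCF antibody, with IgG precipitations as the control. The untreated group held 2 CTCF samples and 1 IgG sample, and the group exposed to 10 µM PDS for 24 h held 2 CTCF samples and 2 IgG samples. The design asks whether CTCF sites differ between cells with and without the G4 stabilizer. A single list was given per condition, so no peak had a replicate value, no test between the lists was possible, and the depth of the libraries is unknown. All differences below compare 2 lists and have no replicate check. Peak edges also fell on a different grid of positions in each list, with a narrowest peak of 120 bp (control) and 100 bp (PDS). The effect of these grids on the widths, edges, numbers and overlaps of peaks was not tested.

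Imprinted genes are expressed mainly from the copy inherited from a single parent, and most lie in domains controlled by a region whose DNA methylation differs between the parental copies. CTCF is a zinc-finger protein that insulates enhancers from promoters and anchors chromatin loops, and at some imprinted control regions it binds the unmethylated copy only. The peak lists do not separate the parental copies, so which copy was bound cannot be told apart here.

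A minority of the CTCF peaks at these genes held a full match to the CTCF motif, and the following matches are shown because they lie in peaks described by gene further on. Each match is to the 15-letter CTCF core consensus with all 11 constrained letters kept. Each is printed 5′ to 3′ on its own strand, with the constrained letters in capitals. Positions are on hg19.
MEG3, chr14:101317653-101317667, plus strand: cCAccAGGgGGCAGC
KCNQ1, upstream, chr11:2449609-2449623, plus strand: cCAccAGAgGGCGCT
CDKN1C, exon, chr11:2906410-2906424, plus strand: gCAgcAGGcGGCAGC
MEST, over its start, chr7:130126007-130126021, plus strand: gCAatAGGtGGCGCT
L3MBTL1, intron, chr20:42166903-42166917, plus strand: cCAccAGAgGGCACT
PLAGL1 and HYMAI, chr6:144334731-144334745, minus strand: cCActAGAtGGCGCC
GRB10, intron, chr7:50700786-50700800, minus strand: cCAgtAGGtGGCGCT
ATP10A, exon, chr15:25955429-25955443, minus strand: cCAgcAGGgGGCGCC
RTL1, upstream, chr14:101372966-101372980, plus strand: cCActAGAtGGCACT

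The control peaks with the highest fold, at CDKN1C and in KCNQ1, had no full match. The first window below is from the CDKN1C and SLC22A18 peak that ranked 192 in the control list. Capitals mark a minus-strand match that misses 1 constrained letter, read here on the plus strand of chr11:2909689-2909883.
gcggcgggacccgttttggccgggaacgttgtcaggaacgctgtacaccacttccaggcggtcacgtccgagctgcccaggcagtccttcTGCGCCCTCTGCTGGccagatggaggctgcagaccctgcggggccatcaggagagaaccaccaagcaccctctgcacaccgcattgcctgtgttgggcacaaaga
The second window, chr11:2554093-2554287 on the plus strand, lies in an intron of KCNQ1 under the peak that ranked 713 in the control and 621 in the PDS list. It also holds a match with 1 mismatch, in capitals.
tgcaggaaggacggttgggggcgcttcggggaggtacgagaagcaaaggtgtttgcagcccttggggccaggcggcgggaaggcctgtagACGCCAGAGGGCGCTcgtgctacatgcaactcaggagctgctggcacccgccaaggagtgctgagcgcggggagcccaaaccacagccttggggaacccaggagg

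A G4 motif was taken as 4 G runs, each 3 or more long, separated by 1 to 7 nucleotides, on either strand. Motifs that overlapped named peaks, those at KCNK9 left out, are shown 5′ to 3′ on the G-rich strand, with the G runs in capitals.
CDKN1C, exon, chr11:2906073-2906100, plus strand: GGGGccGGGGccGGGGcGGGGGccGGGG
CDKN1C, exon, chr11:2906103-2906124, plus strand: GGGGccGGGGccGGGGctGGGG
CDKN1C, upstream, chr11:2909500-2909518, plus strand: GGGGttGGGGGGGcGGGGG
PHLDA2, upstream, chr11:2951745-2951769, minus strand: GGGGGcaGGGGtgcGGGaaggtGGG
PHLDA2, upstream, chr11:2952253-2952270, plus strand: GGGtGGGtGGGtgaGGGG
KCNQ1, intron, chr11:2858302-2858329, plus strand: GGGGatGGGcaggatGGGGcacgtaGGG
MEG3, exon, chr14:101317808-101317834, minus strand: GGGctcctGGGtcccGGGGcttctGGG
UBE3A, in a UTR of an annotated transcript, chr15:25683364-25683382, minus strand: GGGcccGGGGcGGGGcGGG
GNAS, exon with an annotated UTR, chr20:57427840-57427865, minus strand: GGGGcccGGGactttGGGtaaGGGGG
PLAGL1, exon, chr6:144263081-144263111, plus strand: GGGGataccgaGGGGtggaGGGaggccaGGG
PLAGL1, near its start, chr6:144385284-144385311, minus strand: GGGcggaGGGcGGGccGGGtgacgtGGG
IGF2R, intron, chr6:160524697-160524721, plus strand: GGGGGtGGGGctggcGGGGGtGGGG
A motif match is a description of the sequence, and the folded state was not measured in these files.

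CTCF peaks were found at most of the imprinted genes, but unevenly. In the control list 25 of the 34 genes (73.5%) had a peak, against 64.8% of 38864 protein-coding and long non-coding genes. In the PDS list the number was 26 (76.5%), against 61.6% of all genes. The median was 1 peak per gene in the control and 1.5 in the PDS list, and the highest counts, at TRAPPC9, were 8 and 11. Over the 4.40 Mb covered by the genes and their flanks the density was 14.99 (control) and 17.5 (PDS) peaks per Mb. Over the genome, which includes DNA far from genes, it was 10.7 and 10.6. At 41 other genes that are imprinted or neighbour imprinted domains, some of which share these peaks, it was 14.5 and 14.9, flanks included.

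**Figure D1:**
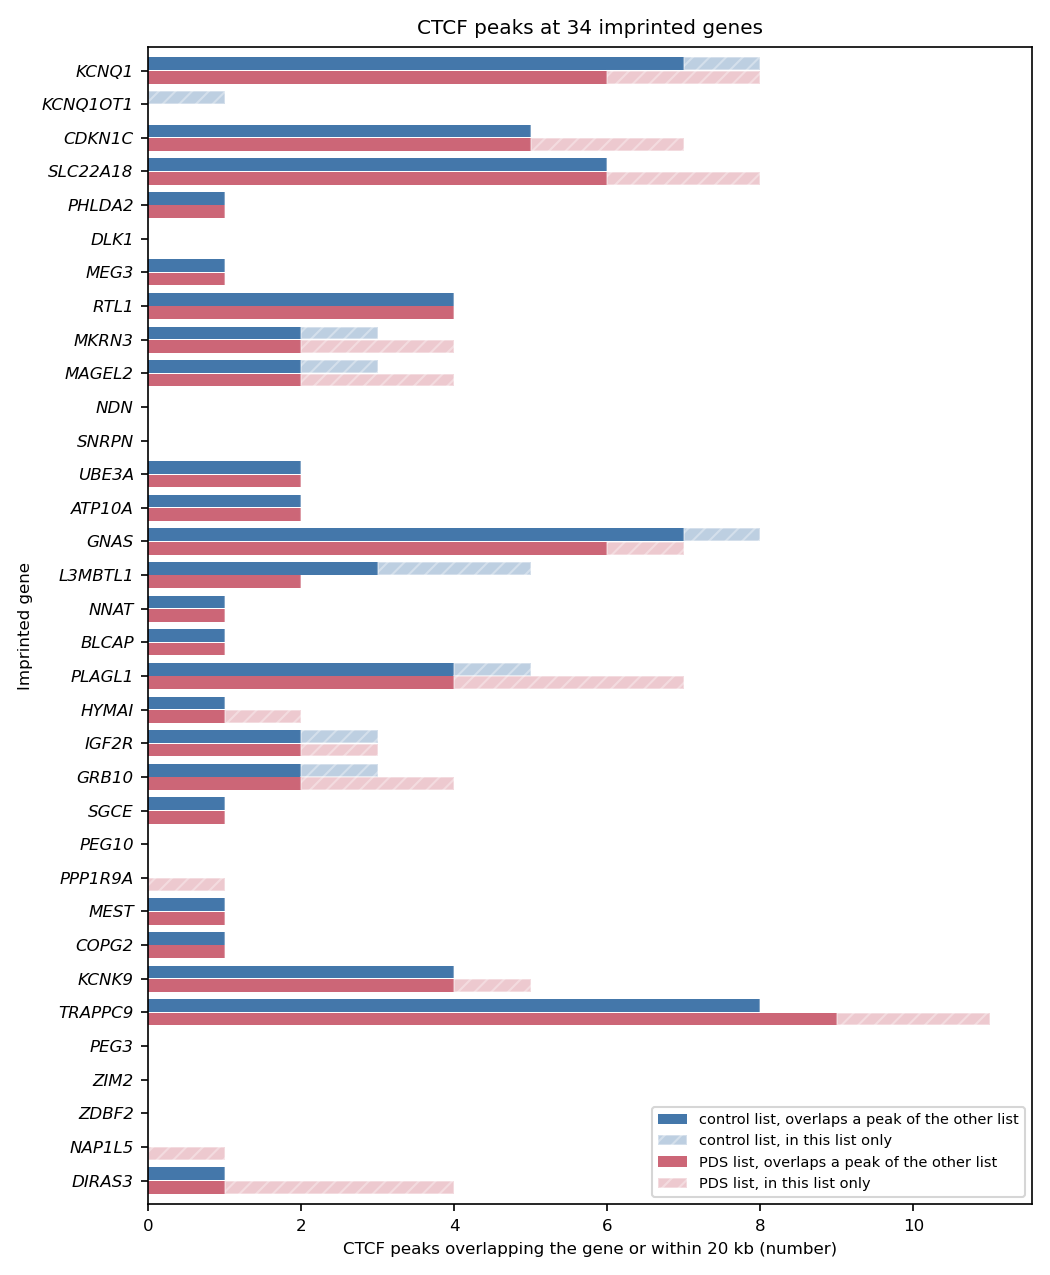
Number of CTCF peaks overlapping each of the 34 imprinted genes or within 20 kb, in the control list (blue) and the PDS list (red). Full bars are peaks that overlap a peak of the other list and hatched bars are peaks of that list only; KCNQ1, GNAS and TRAPPC9 had 8 control peaks each, and 7 genes had none in either list.

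Peaks of the control list at the imprinted genes were mostly found again after PDS. Of the 66 control peaks 58 (87.9%, Wilson 95% interval 77.9 to 93.7%) overlapped a PDS peak by at least 1 bp, against 78.0% of all control peaks. Of the 77 PDS peaks 56 (72.7%, 61.9 to 81.4%) overlapped a control peak, against 78.6% of all PDS peaks. Both intervals, which cover counting error only, include the genome-wide share.

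The number of peaks per gene differed between the lists in one direction more often than in the other at these genes. Among the 27 genes with a peak in either list, 12 had more peaks in the PDS list (44.4%), 3 had fewer (11.1%: GNAS, L3MBTL1 and KCNQ1OT1) and 12 had the same number. Over all genes with a peak, 26.9% had more in the PDS list and 25.2% had fewer. When peaks of 1 list only within 1 kb of a peak of the other list were left out, 6 genes had more (22.2%, against 15.6% of all genes) and 4 had fewer (14.8%, against 26.2%), a comparison chosen after the counts were seen. Genes of a domain share peaks, so the counts are not independent: by domain, 8 had more PDS peaks, 2 had fewer and 4 had equal numbers, and the domains of PEG3 and ZDBF2 had none.

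G4 motifs were about as common in these peaks as elsewhere. A motif overlapped 9 of the 66 control peaks (13.6%, 7.34 to 23.9%), against 16.0% of all control peaks. It overlapped 14 of the 77 PDS peaks (18.2%, 11.2 to 28.2%), against 17.2% of all PDS peaks. A motif within 1 kb without overlap was present for 27 control peaks (40.9%, 29.9 to 53.0%), against 27.8% of all, and for 30 PDS peaks (39.0%, 28.8 to 50.1%), against 29.6%. The base composition differs beside this: the median GC content was 56.0% in the control peaks at the imprinted genes and 51.0% in all control peaks, and 57.2% and 53.0% in the PDS list. The part of GC content in the flanking motifs was not tested.

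The CTCF consensus with all constrained letters was present in 10 control peaks (15.2%, 8.44 to 25.7%), against 17.3% of all. In the PDS list 11 peaks held it (14.3%, 8.17 to 23.8%), against 14.4%. With 1 mismatch allowed the shares were 56.1% and 46.8%, beside 54.3% and 46.2% of all peaks.

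**Figure D2:**
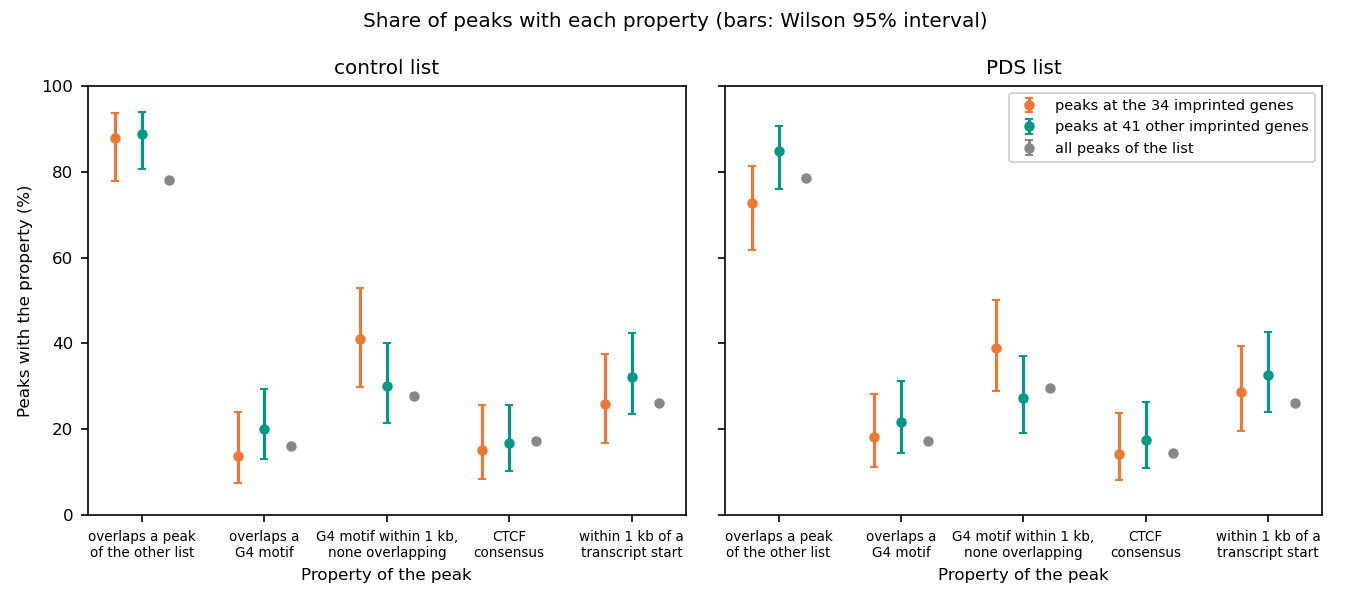
Percentage of peaks with each property in the control list (left) and the PDS list (right); points are shares and bars are Wilson 95% intervals. Shares are for the 34 imprinted genes, 41 other genes and all peaks. The 41, labelled other imprinted genes, are imprinted or neighbour imprinted domains. Some peaks belong to both the 34 and the 41 genes, so these groups are not separate. G4 motifs overlapped 13.6% of the control and 18.2% of the PDS peaks at the 34 genes, and the intervals include the shares of 16.0% and 17.2% over all peaks.

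By position, the peaks at these genes lay within 1 kb of a transcript start in 17 control cases (25.8%) and 22 PDS cases (28.6%), with 26.1% of all control peaks and 26.1% of all PDS peaks as the background. Peaks farther from a start were classed by their centre, with shares given of all 66 control or all 77 PDS peaks. Exons held 9 control peaks (13.6%, 7.34 to 23.9%), against 5.69% of all, and 6 PDS peaks (7.79%, 3.62 to 16.0%), against 5.85%. Introns, in the same classes, held 32 control peaks (48.5%, against 39.3% of all) and 39 PDS peaks (50.6%, against 37.8%). Since the peaks were selected for lying near genes, the lower intergenic share (12.1% against 29.0% in the control list) and the higher intronic share follow in part from the selection.

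The fold enrichment of a peak, read here as CTCF over IgG, was on a different scale in the lists, with a median over all peaks of 26.6 in the control and 16.7 in the PDS list. Peaks were therefore compared by their rank and percentile within a list, where rank 1 and the 100th percentile are the highest fold. The peaks at the imprinted genes spread over the whole range, with a median percentile of 50.6 in the control and 43.9 in the PDS list. The 10% of peaks with the highest fold included 9 of the control peaks, at KCNQ1, CDKN1C and SLC22A18, PHLDA2, MAGEL2, BLCAP and NNAT, L3MBTL1, KCNK9 and TRAPPC9. They included 5 PDS peaks, at KCNQ1, L3MBTL1, TRAPPC9 and DIRAS3. The 10% with the lowest fold included 8 of the control peaks and 8 of the PDS peaks.

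**Figure D3:**
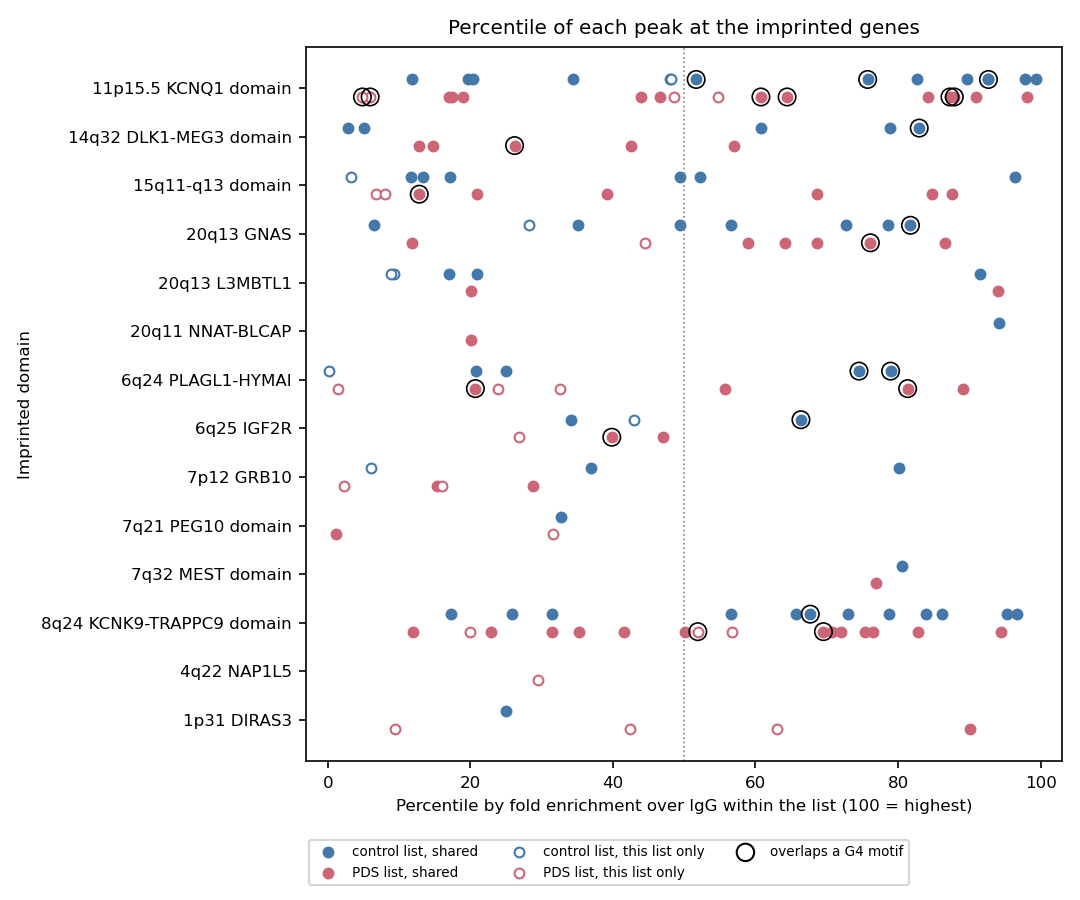
Percentile by fold over IgG (horizontal axis, 100 is the highest in the list) of every peak in each imprinted domain with a peak, control list in blue and PDS list in red. Filled points overlap a peak of the other list, open points do not, and black rings mark a G4 motif; the control points range from 0.110 to 99.4 and the PDS points from 1.13 to 98.1.

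A unique pairing between the lists was possible for 48 peaks at the imprinted genes. Of these, 23 had a higher percentile in the PDS list (47.9%, against 51.4% of 24616 uniquely paired peaks) and 25 a lower one. The median difference, PDS minus control, was -1.999 percentile points at the imprinted genes and 0.68 over all pairs. The middle of the distribution ran from -29.0 to 17.1 points between its quartiles, against -18.5 to 20.6 over all pairs. By p-value in place of fold, 26 of the 48 had the higher percentile in the PDS list (54.2%, against 56.3% of all pairs). Fold and p-value gave opposite directions for 33 of the 48 pairs (68.8%, against 62.2% of all pairs), so directions below are by fold unless a p-value rank is given.

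The largest shifts went both ways. BLCAP is a conserved gene first described in bladder cancer, and NNAT, inside its gene model, encodes the membrane proteolipid neuronatin. The peak upstream of BLCAP and downstream of NNAT was at percentile 94.2 in the control and 20.0 in the PDS list. The peak in the intron of PLAGL1 upstream of the long non-coding RNA HYMAI was at 20.8 and 89.1. Ordered by p-value, both pairs moved the other way: the ranks were 10312 and 7825 for BLCAP and NNAT, and 3916 and 8850 for HYMAI.

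**Figure D4:**
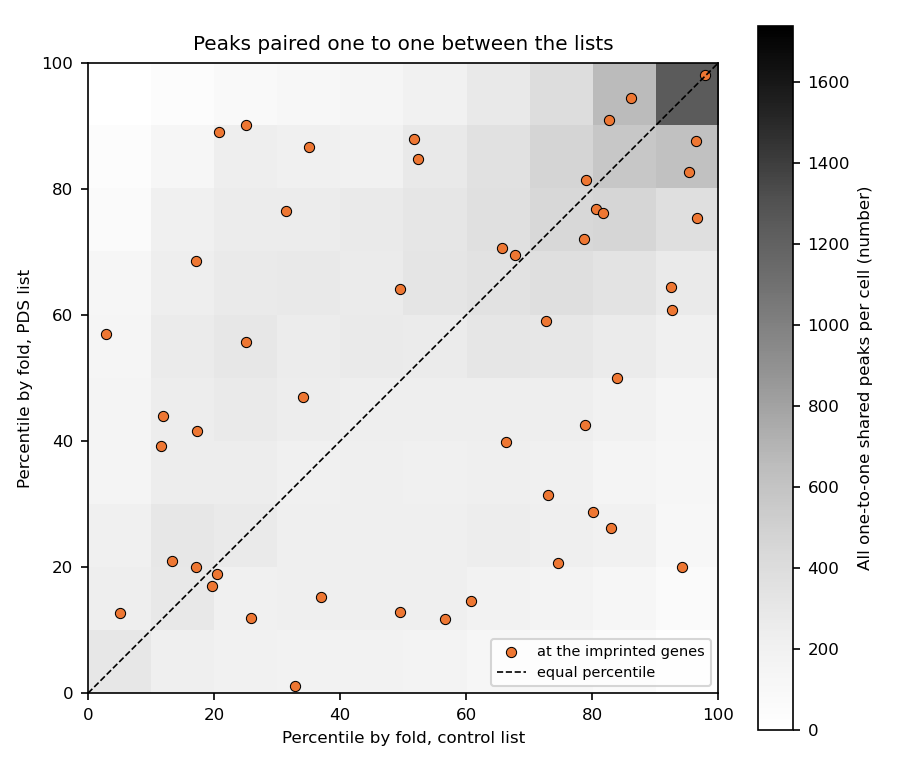
Percentile by fold before (control, horizontal axis) and after PDS (vertical axis) of the 48 uniquely paired peaks at the imprinted genes (orange points), over the number of all 24616 pairs per cell of 10 by 10 points (grey). The points lie on both sides of the dashed line of equal percentile, 23 above it and 25 below.

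The KCNQ1 domain on chromosome 11 held 14 control and 16 PDS peaks over 5 genes. It contains the potassium channel gene KCNQ1, its antisense long non-coding RNA KCNQ1OT1, the cell cycle inhibitor CDKN1C, the organic ion transporter SLC22A18 and PHLDA2, which limits placental growth. Peaks clustered in an intron of KCNQ1 and between CDKN1C and SLC22A18, and no peak of either list lay within 1 kb of a transcript start of KCNQ1, KCNQ1OT1 or SLC22A18.

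The control peak with the highest fold of all 66, chr11:2909581-2910180, lay upstream of CDKN1C at a start of the antisense gene SLC22A18AS. Its fold was 106 in the control list (rank 192). The PDS peak over the same place, chr11:2909201-2910150, had a fold of 27.5 (rank 4187). It was wider, also overlapped part of a second control peak (rank 21687), and overlapped a G4 motif that lay between those control peaks. By p-value the order of the lists was reversed, with rank 4166 in the control and 1816 in the PDS list.

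The exonic CDKN1C peak also reached G4 motifs in the PDS list only. In the control list it spanned chr11:2906221-2906580 with a fold of 57.6 (rank 2460) and no G4 motif. In the PDS list it spanned chr11:2906051-2906550 with a fold of 19.6 (rank 11708), and its left edge took in the pair of GC-repeat motifs printed above. By p-value the peak ranked 11790 and 5981. The CTCF consensus was inside the peak in both lists.

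In KCNQ1 the intronic peak at chr11:2553901-2554440 had a fold of 79.2 (rank 713) in the control list, and the PDS peak over it had 42.8 (rank 621). It was thus near the top of both lists. The peak upstream of KCNQ1 with a full consensus ranked 5740 in the control and 2996 in the PDS list. The intronic peak with a G4 motif at chr11:2858221-2858520 ranked 15992 and 3986, with folds of 27.1 and 28.0, and was the highest-ranked G4 peak of the domain in the PDS list.

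The PHLDA2 peak, within 1 kb of the start of the gene, held a pair of G4 motifs in both lists and was the highest-ranked G4 peak of the domain in the control list. Its fold was 57.8 in the control list (rank 2422) and 18.8 in the PDS list (rank 12916). Ranked by p-value it was at 5475 and 1115, so that fold and p-value again ordered the lists differently.

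KCNQ1OT1 was the only one of the 34 genes with a peak in the control list alone. That peak, chr11:2713741-2713860, was 120 bp wide with a fold of 25.9 (rank 17161), lay in an exon of KCNQ1OT1, and was 125890 bp from the nearest PDS peak. Of the PDS peaks at these 5 genes, 4 overlapped no control peak. Those at CDKN1C (rank 14906, 270 bp from a control peak) and in KCNQ1 (rank 16920, 510 bp away) were among the 5 highest-ranked peaks found in the PDS list only.

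**Figure D5:**
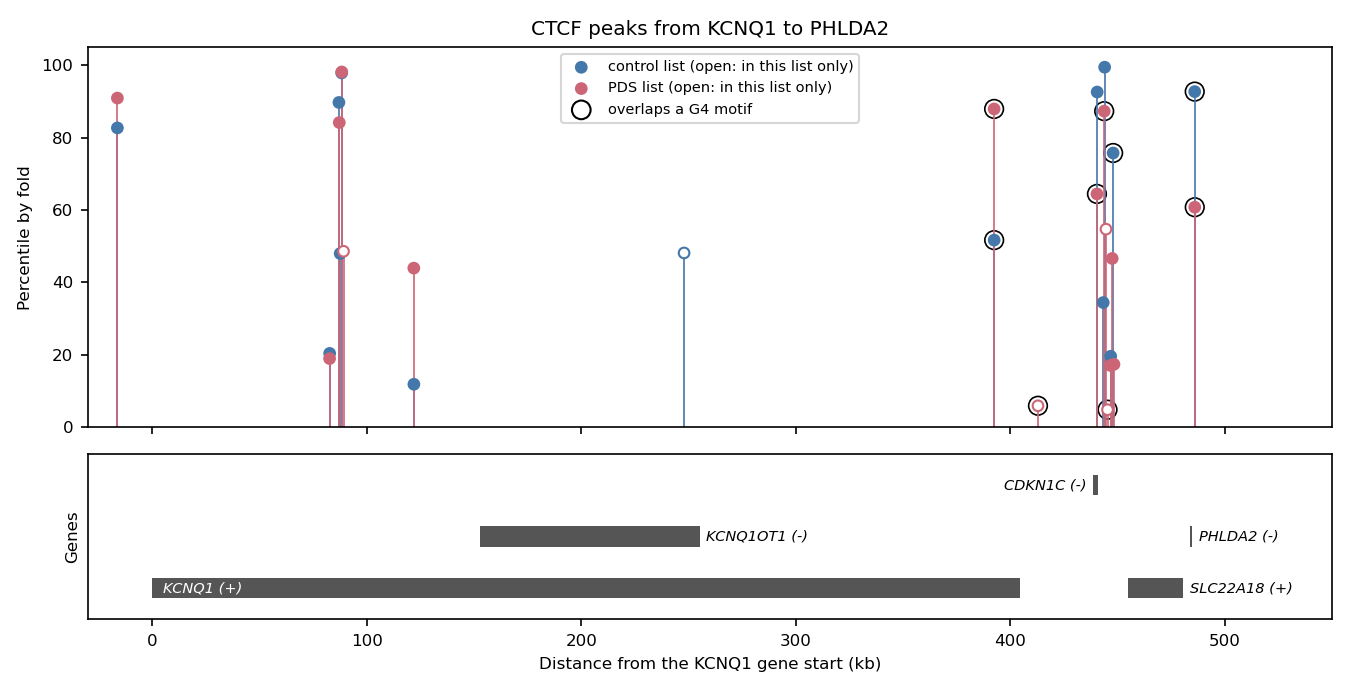
CTCF peaks across the KCNQ1 domain by distance from the KCNQ1 gene start (horizontal axis, kb), with the height of a point giving its percentile by fold in the control list (blue) or PDS list (red) and black rings marking G4 motifs. Gene models with their strand are below; the highest control point (percentile 99.4) lies between CDKN1C and SLC22A18.

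In the domain of DLK1 and MEG3 on chromosome 14 each list had 5 peaks and all overlapped a peak of the other list. DLK1, a Notch-like transmembrane protein, had no peak, and its start was 61.9 kb from the nearest one in both lists. MEG3, a maternally expressed long non-coding RNA, had 1 peak, which held both a full consensus and a G4 motif. The window chr14:101317643-101317844 is shown on the plus strand, with the consensus and then the C-rich strand of the G4 motif in capitals.
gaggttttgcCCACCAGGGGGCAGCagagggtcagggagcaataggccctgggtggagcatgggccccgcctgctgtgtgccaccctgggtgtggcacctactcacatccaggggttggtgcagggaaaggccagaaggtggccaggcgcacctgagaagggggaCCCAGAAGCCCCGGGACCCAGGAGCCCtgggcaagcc
The MEG3 peak had a fold of 43.6 in the control list (rank 5637) and 12.8 in the PDS list (rank 24293), a difference of -56.8 percentile points and the second lowest of the uniquely paired peaks. It spanned chr14:101317501-101317860 in the control list and chr14:101317301-101318150 in the PDS list. By p-value its rank was 5233 and 4101.

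RTL1, a retrotransposon-derived gene needed in the placenta, had 4 peaks in each list. The highest in the control list, chr14:101366941-101367600, ranked 6987 there and 18900 in the PDS list. The highest in the PDS list, with a full consensus upstream of the gene, ranked 14141 there and 32168 in the control list, near the bottom. By fold the order of these 4 places thus differed between the lists, while by p-value it was the same in both. A weaker peak within 1 kb of the RTL1 start was in both lists, at rank 31409 and 28718, and a PDS peak on the other side of the start (rank 28079) also reached to within 1 kb.

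In the Prader-Willi and Angelman region on chromosome 15 there were 7 control and 8 PDS peaks at 6 genes, none of them at SNRPN or NDN. SNRPN encodes a spliceosomal protein and its start region holds the imprinting control of the domain. SNRPN has 10 annotated transcript starts, and distances here are from the most upstream of them, the start of the gene model. From there the nearest peak was 615 kb away in both lists, and 4.02% of all genes had a farther one in the control list. The distance from the imprinting control to a peak was not measured. The start of NDN, which encodes the growth suppressor necdin, was 38 kb from a peak in both lists.

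MKRN3, a ring-finger gene known for its part in the timing of puberty, and MAGEL2, a partner of ubiquitin ligases, shared all their peaks. The highest-ranked one, chr15:23887621-23887980 downstream of MAGEL2, had a fold of 70.3 in the control list (rank 1176) and the PDS peak over it had 27.7 (rank 4091). Upstream of MAGEL2 a second shared peak ranked 15792 and 5028. The PDS list had 2 more peaks nearby, of which the one in the MAGEL2 exon (rank 30282) held a full consensus, and the control list had 1 more, in an exon of MKRN3 (rank 32010).

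UBE3A, the ubiquitin ligase affected in Angelman syndrome, had a pair of peaks at its start in each list. The higher in the control list, chr15:25683421-25683720, ranked 16730 there and 28694 in the PDS list, where its edge reached a G4 motif. By p-value it ranked 19694 and 7764. The other ranked 28667 and 26017. ATP10A, a phospholipid-transporting ATPase, had an exonic peak with a full consensus at rank 27423 in the control and 10342 in the PDS list, and a second peak at an internal transcript start at rank 29244 and 20013.

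At GNAS, which encodes the stimulatory G protein alpha subunit from several promoters, 7 of 8 control peaks and 6 of 7 PDS peaks lay over the gene, and a peak of each list lay upstream. The highest in the control list, chr20:57427741-57428040, lay at an alternative start and held the only G4 motif among the GNAS peaks. Its fold was 42.4 (rank 6043) in the control list and 22.7 (rank 7861) in the PDS list. The highest in the PDS list, chr20:57443901-57444150 in an intron, ranked 4397 there and 21469 in the control list.
The peak over the start of the GNAS gene model was in both lists, at rank 14364 and 29042. At chr20:57456121-57456480 a control peak (rank 23768) overlapped no PDS peak, but a PDS peak began 20 bp from its end. It was among the 5 highest-ranked peaks found in the control list only, and its place there rested on the edges of the peaks.

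L3MBTL1, a methyl-lysine reader of the polycomb group, had 5 control peaks and 2 PDS peaks, the largest shortfall in number among the 34 genes. The strongest was in both lists: chr20:42166501-42167340 had a fold of 55.3 in the control list (rank 2821), and the PDS peak over it had 33.3 (rank 1967). That PDS peak also overlapped part of a second, weaker control peak. The control peaks with no PDS counterpart, at rank 30033 and 30172, were weak. They were 6490 and 7530 bp from the nearest PDS peak. At an internal transcript start a further peak was in both lists, at rank 27445 and 26302.

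The shared peak of BLCAP and NNAT, chr20:36162781-36163080, lay outside both gene models. Its fold was 62.0 in the control list (rank 1929) and 11.5 in the PDS list (rank 26322), the largest downward difference in percentile of the 48 pairs. In the PDS list it was 750 bp wide, and in the control list 300 bp, each on the grid of its own list.

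PLAGL1, a zinc-finger regulator of growth, and HYMAI on chromosome 6 had 5 control and 7 PDS peaks. A G4 motif overlapped a peak in the last part of PLAGL1 in both lists (fold 40.1, rank 6967, and fold 24.6, rank 6141). Another G4 motif overlapped the peak within 1 kb of the most upstream of the 21 annotated PLAGL1 starts. That peak ranked 8432 in the control and 26103 in the PDS list. The intronic peak upstream of HYMAI, with the full consensus, had a fold of 16.5 in the control list (rank 26215) and 28.7 in the PDS list (rank 3590), the largest upward difference of the 48 pairs. The lowest-ranked control peak of all 66, at rank 33058, was also in PLAGL1, and no PDS peak overlapped it.

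IGF2R, the mannose 6-phosphate receptor that takes up IGF2 for degradation, had 3 peaks in each list, of which 2 were shared. The highest in the control list, chr6:160524421-160524780 in an intron, held a G4 motif and ranked 11128 there and 19804 in the PDS list. By p-value it ranked 26573 and 10426, the largest upward difference of the 48 pairs by that value. The highest in the PDS list, at an internal transcript start, ranked 17445 and in the control list 21801. A control peak in an intron (rank 18879) and a PDS peak 0.414 kb upstream of the gene start (rank 24086) were each in a single list and lay 5300 bp apart.

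GRB10, an adaptor that dampens insulin receptor signaling, had 3 control and 4 PDS peaks on chromosome 7. Its intronic peak chr7:50764561-50764800 ranked 6587 in the control and 23452 in the PDS list. The peak with a full consensus ranked 20870 and 27868 by fold, and 11741 and 3555 by p-value. A peak within 1 kb of the GRB10 start was in the PDS list only, near the bottom at rank 32162.

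MEST, a hydrolase family gene, and COPG2, a coatomer subunit gene, shared a single peak over the most upstream of 17 annotated MEST starts. It spanned nearly the same bases in the lists: chr7:130125961-130126380 with a fold of 41.3 (rank 6423), and chr7:130125951-130126350 with a fold of 22.99 (rank 7618). By p-value it ranked 2981 and 8270. The full consensus lay inside it in both.
Around PEG10, a retrotransposon-derived gene of the placenta, no peak lay within 146 kb of its start. SGCE, the epsilon-sarcoglycan gene next to it, had a peak past its end, at the start of CASD1, at rank 22245 and 32545. PPP1R9A, the actin-binding neurabin gene, had a peak in the PDS list only (rank 22477, 100 bp wide).

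KCNK9, a potassium channel of the TASK group, and TRAPPC9, a subunit of a vesicle tethering complex, held 12 control and 16 PDS peaks on chromosome 8, and all 12 control peaks overlapped a PDS peak. In KCNK9 the highest peak had a fold of 71.1 in the control list (rank 1117) and 22.5 in the PDS list (rank 8090), while by p-value it ranked 7734 and 1941. A G4 motif overlapped another KCNK9 peak in both lists, at rank 10694 and 10029. The peak upstream of KCNK9 with a full consensus had ranks of 356 and 781 by p-value, the smallest of the 34 genes in both lists, and of 7045 and 9209 by fold.
In TRAPPC9 the highest control peak, upstream of the gene, had a fold of 65.3 (rank 1555) and ranked 5679 in the PDS list. The highest PDS peak, in an intron, had a fold of 33.8 (rank 1852) and ranked 4586 in the control list. The PDS list also had 3 peaks without an overlap. Those at TRAPPC9 (rank 14261) and KCNK9 (rank 15829, with a G4 motif) lay 410 and 450 bp from a control peak. Both were among the 5 highest-ranked of that list only. The remaining one, at TRAPPC9, ranked 26343 and lay 420 bp from a control peak.

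At DIRAS3, a Ras-like GTPase that restrains growth, the control list had 1 peak and the PDS list had 4. The exonic peak in both lists had a fold of 18.2 in the control list (rank 24801) and 29.4 in the PDS list (rank 3254). Its rank by p-value was 23989 and 23914. The others were in the PDS list only: the peak upstream of the gene (rank 12176) was the highest-ranked of all PDS peaks here without a control overlap, and a 150 bp peak over the gene start ranked 29801. NAP1L5, a nucleosome assembly protein-like gene, had 1 peak, in the PDS list only (rank 23167, 100 bp wide).

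No peak was found at DLK1, PEG10, PEG3, ZIM2, SNRPN, NDN or ZDBF2 in either list. PEG3 and ZIM2 are zinc-finger genes that share a start region. Their gene starts were 259 kb from the nearest peak in both lists, and 8.18% of all gene starts were farther from one in the control list. The start of ZDBF2, a zinc-finger gene, was 110 kb from the nearest control peak and 270 kb from the nearest PDS peak. A missing entry in these lists means that no peak passed the caller's threshold, and the signal there was not among the values used.

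A peak within 1 kb of a gene's own transcript starts was present for 10 of the 34 genes (29.4%) in the control list, against 22.3% of all genes. In the PDS list it was 12 genes (35.3%), against 21.3%. The 10 were CDKN1C, PHLDA2, RTL1, UBE3A, ATP10A, GNAS, L3MBTL1, PLAGL1, IGF2R and MEST, and the PDS list added DIRAS3 and GRB10. The median distance from the gene start to the nearest peak was 10.9 kb in both lists, against 17.3 kb and 19.5 kb over all genes.

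Peaks found in a single list were narrow and weak at these genes, as elsewhere. The 8 peaks of the control list only had a median width of 120 bp, and all 8 were in the weaker 50% of the list by p-value, as were 88.5% of all peaks in that list only. The 21 peaks of the PDS list only had a median width of 100 bp, and all 21 were in the weaker 50%, as were 98.9% of all. None of the 8 held a G4 motif or a full consensus, against 5.32% and 10.5% of all peaks in the control list only. Of the 21 there were 3 with a G4 motif (14.3%, against 5.92%) and 1 with a full consensus (4.76%, against 1.37%). Of the 21, 10 lay within 1 kb of a control peak (47.6%, against 60.0% of all peaks in the PDS list only).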

How the data were processed

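CTCF and IgG ChIP-seq was done in untreated K562 cells and in cells treated with PDS. Per the study's methods, the authors aligned reads to hg19 with Bowtie2 (version 2.2.3 in the submitters' processing notes), removed duplicates and reads with mapping quality below 30 with SAMtools, and called peaks with PePr. The labels of the CTCF and IgG samples of a condition name the same list, and how the samples entered the call is not given in the sources used here. The deposited lists have no header, and a column of each was read as fold enrichment over IgG (a ratio) and another as the deposited p-value, from the PePr format and the values. All ranks rest on this reading. No read counts were used, so the depth per sample is unknown. A single list per condition leaves no spread between replicates, so no test was run, and the mapping filter can hide peaks in repeats.

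Gene models came from GENCODE 44 mapped to GRCh37, whose chromosome names and lengths fit the peaks, and sequences from the GRCh37 genome (pysam 0.24.0, Python 3.11.15, pandas 2.3.3). Of the peaks, 33070 control and 32893 PDS peaks lay on the assembled chromosomes and form the genome-wide shares, while ranks cover the whole lists. All 34 genes matched a gene model. For each gene, the highest-ranked peak of each list was named, with the highest-ranked G4 peak of each domain, the 5 highest-ranked peaks found in each list only, and peaks within 1 kb of a start. The members and lists were chosen with earlier results of these data known. Motif and overlap searches were tested on simulated data. Wilson 95% intervals cover counting error only. Alternative distances, overlaps, motif definitions and p-value ranks are given in the closing section. The other deposited columns, among them a rescaled fold, were not used.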

Additional observations from a re-analysis of the deposited data

How the results depend on the processing

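Of 72 summary values recomputed under another setting, 57 stayed within their limit (1.5 times for a number, the Wilson interval for a share, the order-statistic interval for a median), and 15 moved. Keeping only the more significant 50% of each list by p-value left 34 control and 36 PDS peaks, and 30.6% of those PDS peaks had a G4 motif, beside 27.4% of all. The shared share of the control peaks was then 82.4%, beside 82.9% of all, where it had been above the share of all peaks. Counting peaks over the gene itself left 49 PDS peaks at 17 genes. Requiring an overlap of 50% of both peaks gave shared shares of 66.7% (control) and 57.1% (PDS), beside 65.2% and 65.6% of all peaks. Centres at most 100 bp apart gave 68.2% and 58.4%, beside 59.6% and 59.9%. A gap of up to 1 kb gave 85.7% for the PDS list, beside 91.5%. Loops of 1 to 12 nucleotides raised the G4 share to 33.3% (control) and 35.1% (PDS), beside 26.9% and 29.3% of all peaks, so that the control share turned from below to above that of all peaks. Allowing 1 mismatch raised the consensus share to 56.1% and 46.8%, beside 54.3% and 46.2%. Leaving out side peaks within 1 kb, a setting chosen after the counts were seen, left 6 genes with more peaks in the PDS list, beside 15.6% of all genes, and 4 with fewer, beside 26.2%. Ranking by p-value moved 102 of 143 single peaks by over 10 percentile points, and the median difference of the 48 pairs turned from -1.999 by fold to 3.81 by p-value, so the order of single peaks depends on the value that ranks them. No paired analysis was possible because only a single list stands for the replicates of a condition. No replicate could be left out for the same reason.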

Other observations

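Of 44 other genes that are imprinted or neighbour imprinted domains, 41 matched a gene model. A control peak was present at 33 of them and a PDS peak at 31, with 7 genes having more peaks in the PDS list, 6 fewer and 20 the same number. HM13, which encodes a signal peptide peptidase, had 9 peaks in each list, and ANO1, a calcium-activated chloride channel gene, had 8 in each. TSSC4 had 6 in each. The antisense genes GNAS-AS1 (7 control and 6 PDS peaks) and SLC22A18AS (5 and 7) lie beside genes described above and share their peaks. No peak was found at AIRN, DIO3, MEG9, MIMT1, NPAP1, PEG13, PWRN1 or SNURF in either list. PEG13 lies inside TRAPPC9, and SNURF shares its start region with SNRPN. ASCL2 and SLC22A2 each had 1 control peak and no PDS peak.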
